A study of Mus musculus with 4 samples.

Results

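The loss of Pnpla7 was compared between 2 ages of mouse liver by the difference of 2 log2 ratios, that of knockout over wild type at 6 weeks minus that at 3 weeks, over the abundantly expressed genes of the array. A gene was chosen by its brightest probe, which had to be well above background on all 4 arrays with a mean scaled log2 signal above 0, where the scaled signal is the processed intensity divided by the array's 75th percentile. In all, 8187 of 30026 genes with a value on every array met this rule, 6570 of them with a gene symbol and 1617 clones or gene models. The gene just above the limit was Celf2, an RNA-binding splicing regulator, with signals of 0.854, 0.999, 0.966 and 1.22 in wild type and knockout at 3 weeks and then at 6 weeks. The gene just below it was Cryba4, a lens crystallin, at 0.921, 0.838, 0.993 and 1.31. Signals of other genes are given below in that same order of the 4 arrays.

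The 4 groups were wild-type and Pnpla7-/- C57BL/6N mice, each at 3 and at 6 weeks of age, the knockout being homozygous by its label. Each group was 1 array, hybridised with liver RNA pooled in equal parts from 5 animals. Spread between animals was therefore not measured, a model with genotype, age and their interaction leaves 0 residual degrees of freedom, and every difference below compares pools, without a test. The spread between the 10 spots of 129 replicated bright probes gave a median SD of 0.134 for the difference (95th percentile 0.268). It covers spots within an array only, and spread between arrays from labelling, hybridisation and scanning was not measured.

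PNPLA7 is a lysophospholipase of the endoplasmic reticulum that hydrolyses lysophosphatidylcholine to glycerophosphocholine, a route by which cells regain choline. In liver, choline is oxidised to betaine, which gives its methyl group to homocysteine and so feeds the methionine cycle. The interval between both ages spans weaning, when the liver stops dividing quickly, loses fetal transcripts and acquires adult and sex-biased gene expression under growth hormone.

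The target gene itself was read at 7.54, 6.7, 9.65 and 4.42 by its single probe, at chr2:24908961-24909192 of mm9. The ratio was -0.17 in the younger and -1.13 in the older mice on the log2 scale, and the sources used here do not give the deleted part of the gene, so this probe does not check the labels. All 14 hepatocyte markers were members, with summed signals between 2373 and 2682 on the 4 arrays. The 30 skeletal muscle markers summed to 91.2 and 65.3 on the knockout arrays at 3 and 6 weeks, against 3.16 and 4.44 on the wild-type arrays, and all 30 were well above background on both knockout arrays against 13 and 20 on the wild-type ones. The labels give no sex. Xist, chosen after its values were seen, was read at 1.27, 1.29, 1.47 and 1.79, while Ddx3y, Eif2s3y and Kdm5d, which are Y-linked, were well above background on no array. Of 2 probes of Uty, also Y-linked, 1 was well above background on the wild-type array at 3 weeks alone, at 0.222.

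Most abundant genes had a similar ratio at both ages, and where the ratios parted it was mostly the ratio at 6 weeks that was large. The difference was at least 2-fold higher at 6 weeks for 150 genes, 1.83% of the 8187, and at least 2-fold lower for 144, or 1.76%. It lay within 1.5-fold for 7167 genes, or 87.5%. At 4-fold, 16 genes were higher and 19 lower. The SD over the members was 0.278 for the ratio at 3 weeks and 0.464 at 6 weeks, and 30 genes were at least 2-fold above wild type at 3 weeks against 207 at 6 weeks, with 25 and 137 at least 2-fold below. Across these genes, which are not independent replicates, both ratios correlated with Pearson's r = 0.289 and Spearman's rho = 0.218. Dimmer genes with a signal well above background everywhere numbered 10684, and 5.79% of them had a difference of 2-fold or more upwards and 4.75% downwards.

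**Figure D1:**
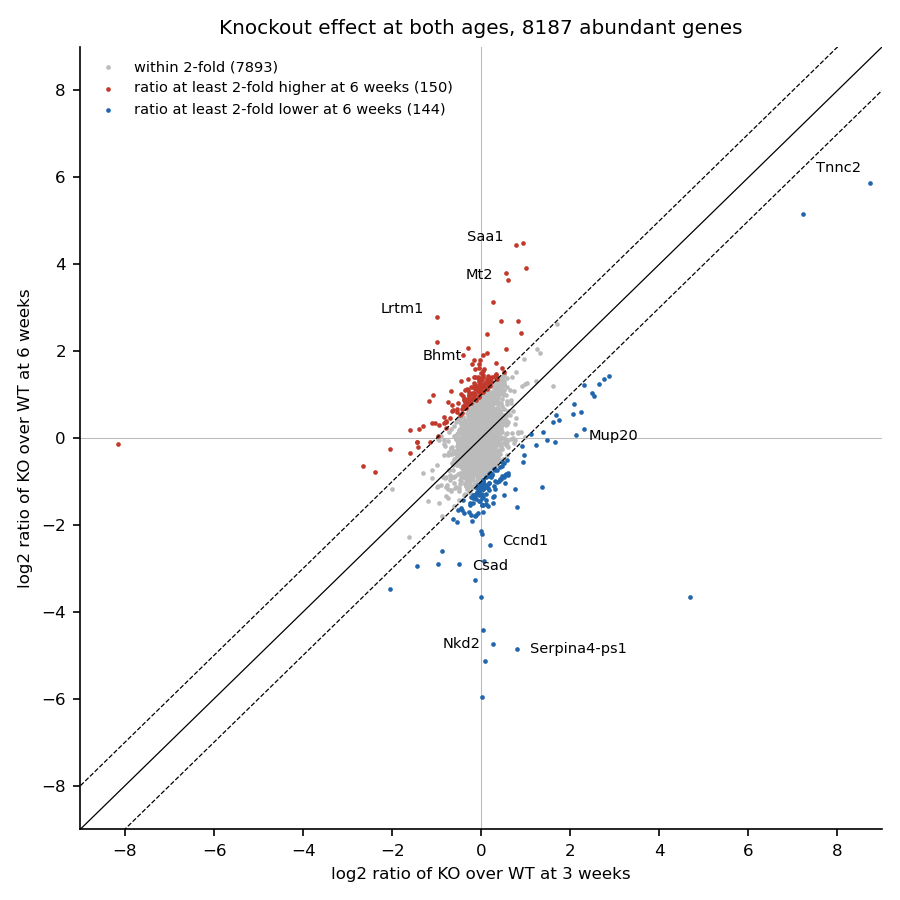
Each point is 1 of 8187 abundant genes, with the log2 ratio of knockout over wild type at 3 weeks on the horizontal axis and at 6 weeks on the vertical axis, 1 array per group. The solid line marks equal ratios and the dashed lines a 2-fold difference, with 150 genes above and 144 below. The coloured points are spread mainly along the vertical axis near a 3-week ratio of 0, apart from the major urinary proteins (Mup20) and muscle genes (Tnnc2) to the right.

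Of the 294 genes past 2-fold, 164 (55.8%) were at least 2-fold from wild type at 6 weeks and within 1.5-fold at 3 weeks, with 82 in each direction. The opposite order, 2-fold at 3 weeks and within 1.5-fold at 6 weeks, held for 23 genes, and 16 were at least 1.5-fold from wild type at both ages in opposite directions. The same differences can be read as unequal change with age. Among the 150 higher genes, 34 were at least 2-fold higher with age in knockout and within 1.5-fold in wild type, and 25 were at least 2-fold lower with age in wild type and within 1.5-fold in knockout. Among the 144 lower genes, 56 were at least 2-fold lower with age in knockout alone by the same limits, and 23 were at least 2-fold higher with age in wild type alone.

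The median difference over the members was 0.07 and depended on brightness. It was 0.00012 for the 2101 genes with a mean scaled log2 signal of 0 to 1, 0.104 for the 1043 genes of 3 to 4 and 0.197 for the 415 genes above 6, where the median ratio was -0.0084 at 3 weeks and 0.196 at 6 weeks. Lists of very bright genes carry this shift. The 66 ribosomal protein genes had a median difference of 0.18, the 48 respiratory chain genes 0.18 and the 14 hepatocyte markers 0.16, with no gene past 2-fold in any of them. With quantile normalization, which gives every array the same distribution, these medians were 0.000868, 0.0144 and -0.048.

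**Figure D2:**
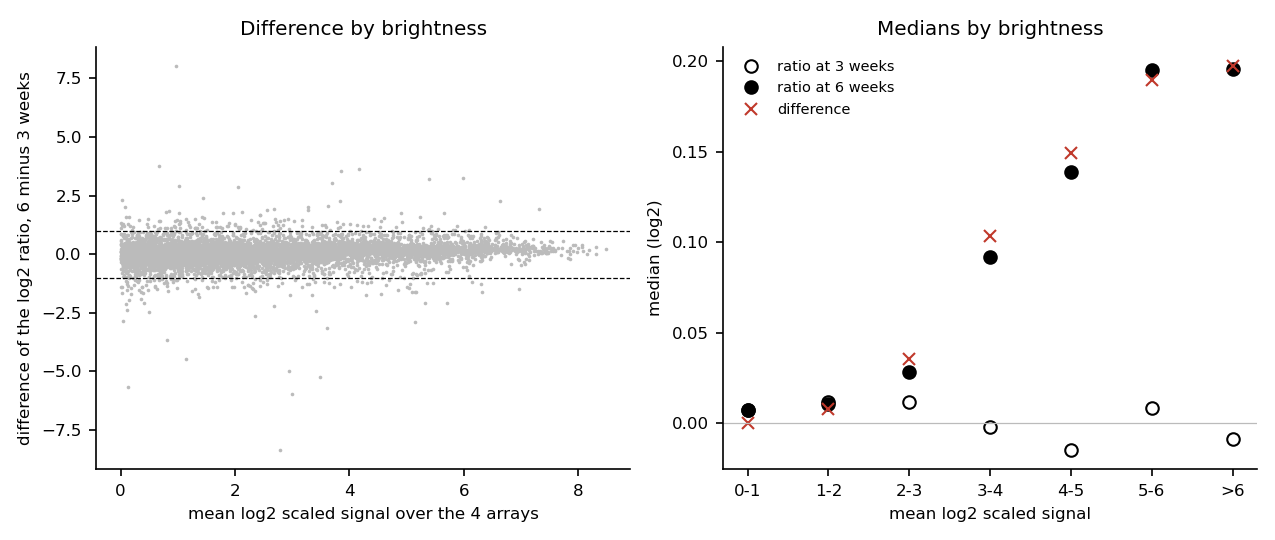
Left, the difference of the log2 ratio (6 minus 3 weeks) of each abundant gene against its mean log2 scaled signal over the 4 arrays, with dashed lines at 2-fold. Right, medians of both ratios and of the difference by brightness, where the median difference goes from about 0 in the dimmest bin to 0.197 in the brightest and the 3-week ratio stays near 0.

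The acute phase proteins, which hepatocytes secrete in response to interleukin-6 and related signals, held several of the largest positive differences. Among 26 acute phase members, 8 passed 2-fold upwards and 0 downwards, and their median difference was 0.41. The median was 0.24 with quantile normalization and 0.25 with normexp and quantile normalization. Saa1, serum amyloid A, was read at 7.88, 13.6, 6.67 and 145 at chr7:53996070-53996129 (mm9), so that the knockout pool at 6 weeks stood far above the other 3. Its log2 ratio was 0.79 at 3 weeks and 4.44 at 6 weeks, a difference of 3.65. Its neighbour Saa2 had signals of 5.77, 11, 5.55 and 124 and a difference of 3.55. The probes of both genes share at most 18 of 60 bases at any offset tried. That compares probe with probe, so whether each probe also reads the other gene's transcript was not tested. Lcn2, the siderophore-binding lipocalin 2, was at 4.8, 5.77, 1.09 and 9.62, with a difference of 2.88. Its log2 change with age was -2.14 in wild type and 0.74 in knockout, so the low wild-type value at 6 weeks made the larger part. Serpina3n (10.9, 12.8, 7.52 and 19.8) and the leucine-rich glycoprotein gene Lrg1 (37, 37.8, 32 and 66.8) had differences of 1.16 and 1.03. The list was not uniform: the fibrinogen chain Fga had a difference of -0.13, C-reactive protein Crp -0.08 and the feedback inhibitor Socs3 0.02.

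The acid glycoproteins Orm1 and Orm2 differed from the serum amyloids in being below wild type at 3 weeks. Orm1 was read at 5.51, 2.46, 19.2 and 34.4, giving log2 ratios of -1.17 and 0.84 and a difference of 2.01. Orm2 was read at 7.09, 3.33, 22 and 43.6, with ratios of -1.09 and 0.98 and a difference of 2.07. Both genes were higher at 6 weeks than at 3 weeks in both genotypes, and the age change was larger in knockout.

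Both metallothioneins, small proteins that bind zinc and copper, were lowest in wild type at 6 weeks. Mt2 was read at 76.5, 112, 11.5 and 162, with ratios of 0.55 and 3.81 and a difference of 3.26. Mt1 was read at 111, 150, 29.9 and 195, with ratios of 0.44 and 2.70 and a difference of 2.26, and a second probe gave 4.11. The wild-type pool lost signal between the ages while the knockout pool did not. The other 3 zinc genes of the list, the transporters Slc39a14, Slc30a1 and Slc39a4, had differences of 0.38, 0.17 and -0.70. The promoters of the pair are shown because both genes moved together and lie side by side on chromosome 8. They are the 250 bases before the gene start in RefSeq (GRCm38.p6, plus strand, chr8:94178839-94179088 for Mt1 and chr8:94172368-94172617 for Mt2), with the core of the metal response element, TGCNCNC on either strand, in capitals.
Mt1: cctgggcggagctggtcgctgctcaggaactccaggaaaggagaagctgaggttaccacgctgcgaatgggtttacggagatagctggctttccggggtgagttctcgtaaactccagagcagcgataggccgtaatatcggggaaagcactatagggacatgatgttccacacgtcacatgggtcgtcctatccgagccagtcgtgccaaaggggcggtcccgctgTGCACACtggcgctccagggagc
Mt2: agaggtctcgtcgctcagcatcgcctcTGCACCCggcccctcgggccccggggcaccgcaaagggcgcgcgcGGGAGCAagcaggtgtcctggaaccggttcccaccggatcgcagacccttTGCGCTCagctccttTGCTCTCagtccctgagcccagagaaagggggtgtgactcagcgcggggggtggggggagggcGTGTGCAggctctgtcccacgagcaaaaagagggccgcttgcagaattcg
Mt2 held 5 matches and Mt1 held 1. The core is short and 43.8% of 27025 promoters of that length hold it, so its presence describes the sequence and no more.

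Clock genes and clock-controlled transcripts were higher in knockout at 6 weeks in the main. These genes form the transcriptional loop that keeps daily time in the liver, and the labels do not state the hour of collection. Among 13 members, 5 passed 2-fold upwards and 1 downwards, and the median difference was 0.87. Usp2, a ubiquitin protease under clock control, was read at 3.09, 2.5, 1.28 and 5.37, a difference of 2.38. The repressor Cry2 was at 5.57, 4.52, 3.66 and 9.46 (difference 1.67), and Per1 was at 6.45, 7.12, 3.74 and 9.51 (1.20). In both, wild type was lower at 6 weeks than at 3 weeks and knockout higher. Nfil3, which represses targets of the same D-box elements that Dbp, Tef and Hlf activate, had signals of 3.97, 3.69, 4.01 and 1.63 and a difference of -1.19. Hlf was at 2.82, 2.77, 2.4 and 5.31 with a difference of 1.17, while Dbp had 0.61 and Tef 0.98. Some genes outside the list, chosen after their values were seen, were also highest in knockout at 6 weeks. The glucocorticoid target Fkbp5 was read at 7.35, 7.56, 3.86 and 10.6 and Ddit4 at 3.64, 4.01, 2.52 and 9.8, with differences of 1.42 and 1.82. The cold-inducible RNA-binding protein genes Rbm3 (6.01, 5.21, 4.05 and 13.2) and Cirbp (1.1, 1.08, 1.6 and 5.58) had 1.91 and 1.83. A second probe gave 2.10 for Rbm3 but 0.57 for Cirbp.

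**Figure D3:**
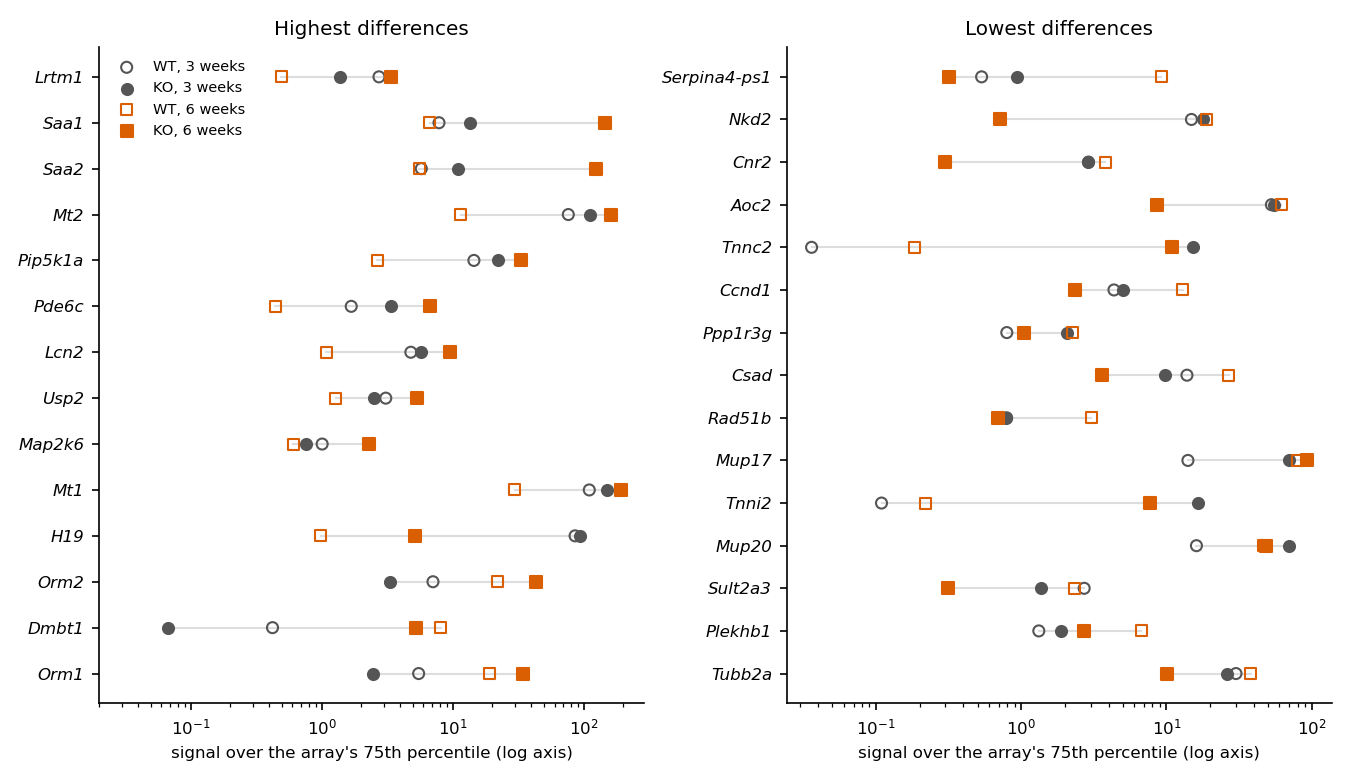
Scaled signal on the 4 arrays (log axis) for abundant genes with a gene symbol, 14 among those with the highest difference and the 15 with the lowest. Clones and numbered gene models are left out, and genes are ordered from the top by the size of the difference. Among the highest, the filled square (knockout at 6 weeks) is the rightmost symbol in all but 2 genes, H19 and Dmbt1 being the exceptions, and in several, such as Mt2, the open square (wild type at 6 weeks) is far to the left.

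Genes of the methionine cycle, which uses betaine made from choline, were mostly higher relative to wild type at 6 weeks than at 3 weeks. The 27 members of the methionine and one-carbon list had a median difference of 0.49, and 4 of them passed 2-fold upwards and 1 downwards. Bhmt, which remethylates homocysteine with betaine, was read at 190, 170, 76.6 and 264. Its ratio was -0.16 at 3 weeks and 1.78 at 6 weeks, a difference of 1.94, and a second probe gave 1.82. Mat1a, the liver methionine adenosyltransferase, was at 71.5, 73.1, 43.9 and 92.4 (difference 1.04), and Ahcy, which hydrolyses S-adenosylhomocysteine, at 34.3, 37.4, 33.4 and 73.4 (1.01). Both fell short of 2-fold with quantile normalization, at 0.825 and 0.821. Nnmt, which methylates nicotinamide, was at 6.75, 8.39, 2.49 and 6.6, a difference of 1.09, and a second probe gave 1.78. For Bhmt, Mat1a and Nnmt the 2 arrays at 3 weeks were close to each other and wild type at 6 weeks was the lowest of the 4. The glycine methyltransferase Gnmt had a difference of 0.90 and cystathionine beta-synthase Cbs -0.65. Csad, which makes the taurine precursor hypotaurine, went the other way, with signals of 13.8, 9.81, 26.8 and 3.58 and a difference of -2.41.

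The genes of choline and phosphatidylcholine metabolism differed little between the ages. Their 18 members had a median difference of 0.03, with 0 past 2-fold upwards and 1 downwards. The lower one was choline kinase alpha, Chka, which commits choline to phosphatidylcholine synthesis. It was read at 1.55, 1.66, 1.97 and 0.733, low on the knockout array at 6 weeks alone, with a difference of -1.53 and -1.39 by a second probe. Choline kinase beta Chkb had -0.11, the rate-setting enzyme Pcyt1a 0.40, the methyltransferase Pemt 0.03 and the paralogous lysophospholipase Pnpla6 0.03.

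Genes of amino acid catabolism, and those of a gluconeogenesis and fasting list, mostly had differences in the same direction as the methionine cycle. Of 32 urea cycle and amino acid genes, 5 passed 2-fold upwards and 0 downwards (median 0.38), and of 23 gluconeogenic and fasting genes the numbers were 4 and 0 (median 0.27). The latter median was 0.22 with quantile normalization. The fasting genes past 2-fold were Lpin1, Per1, Gpt and Got1, and the lists overlap: Per1 is also in the clock list and Gpt in the amino acid list. Prodh, proline dehydrogenase, was at 31.4, 19.7, 24.8 and 52.9, below wild type at 3 weeks and above it at 6 weeks, a difference of 1.76. The urea cycle enzyme Asl was at 31.7, 27.6, 20.4 and 46.3 (1.38), ornithine aminotransferase Oat at 10.1, 11.2, 12.5 and 33.8 (1.28), and the alanine transaminase Gpt at 43.6, 38.2, 31.9 and 64.4 (1.21). In each of these 4 genes the knockout pool at 6 weeks gave the highest of the 4 values. Lpin1, a phosphatidate phosphatase induced by fasting, was at 7.97, 8, 4.31 and 12.2, a difference of 1.49. The gluconeogenic enzymes G6pc and Pck1 had -0.04 and 0.39.

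Several genes of cholesterol and bile acid synthesis were lower with age in wild type, and less so or not in knockout. Of 23 cholesterol genes, 3 passed 2-fold upwards and 0 downwards, 21 had a difference above 0, and the median was 0.39. Msmo1, a sterol demethylase, was at 26.9, 28.1, 9.77 and 29.3 (1.52), with wild type at 6 weeks alone standing apart, and Mvd, a decarboxylase of the mevalonate pathway, at 2.34, 1.61, 0.809 and 1.23 (1.15). Of 22 bile acid genes, 5 were higher and 0 lower (median 0.33). Cyp7a1, the rate-limiting enzyme of bile acid synthesis, was at 10.7, 11, 2.24 and 6.55, a difference of 1.51, and Cyp8b1, which directs synthesis to cholic acid, was at 4.3, 3.29, 1.32 and 2.43 (1.27). The bile salt export pump Abcb11 had -0.87.

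Female-biased and xenobiotic genes differed already at 3 weeks. Over the 20 female-biased members the median ratio was -0.99 in the younger and -0.30 in the older mice. The difference passed 2-fold upwards for 7 and downwards for 2, and its median was 0.29, or 0.48 with the mean signal required to be above 1 or only above -1. The organic anion transporter gene Slc22a26 was at 1.76, 0.423, 3.84 and 3.23 (1.80) and Cyp2b10, an induced target of the receptor CAR, at 39.9, 15.2, 52.9 and 61.2 (1.60). For both, the low value was that of knockout at 3 weeks. Hao2, hydroxyacid oxidase 2, was below wild type at both ages, at 4, 1.46, 2.78 and 0.361, and more so at 6 weeks (-1.49). The 14 male-biased members had a median ratio of 0.33 in the younger and 0.12 in the older mice. Their median difference was 0.08, with 7 above and 7 below 0, and 0 passed 2-fold upwards and 2 downwards, Mup20 and Egfr. Among 25 CAR and PXR targets 8 were higher and 1 lower (median 0.39, and 0.64 with the mean of all probes of a gene), and the lower one, Cyp3a44, was at 9.94, 2.4, 5.69 and 0.51 (-1.43). Nr1i3, which encodes CAR, was at 9.11, 7.87, 10.9 and 22.4 (1.25).

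The major urinary proteins, pheromone carriers made in liver, had the opposite pattern: all 11 members were nearer wild type at 6 weeks than at 3 weeks or below it. Their median ratio was 2.07 at 3 weeks and 0.52 at 6 weeks, the difference passed 2-fold downwards for 8 and upwards for 0, and its median was -1.42. Mup20, the male pheromone darcin, was at 16.1, 70.3, 46.4 and 48.3, with ratios of 2.13 and 0.06 and a difference of -2.07, or -1.71 by a second probe. Mup17 was at 14.1, 69.9, 80.1 and 93.1, with wild type at 3 weeks alone low, and a difference of -2.10. Mup18 (21.2, 100, 113 and 172) and Mup19 (36.4, 152, 175 and 259) had -1.63 and -1.50. In these 4 genes the lowest array was wild type at 3 weeks. The genes are near-identical copies, so probes may read one another's transcripts, and the best gapless match between 2 of their 60-base probes ranged from 18 to 51 bases over 55 pairs. The values of the sex-chromosome genes given above stand beside both groups, and their part in these differences was not tested.

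Among genes with a symbol, clones and numbered gene models left out, the largest negative difference was that of Serpina4-ps1, a serpin pseudogene, at 0.533, 0.937, 9.21 and 0.317. Wild type at 6 weeks was the highest array, the difference was -5.67, and a second probe gave -5.77. Rad51b, a recombination protein gene, had the same form at 0.793, 0.788, 3.03 and 0.687 (-2.13), and Ccnd1, cyclin D1, was at 4.35, 4.98, 12.9 and 2.36, a difference of -2.65. Pltp, the phospholipid transfer protein, was at 0.86, 0.951, 2.43 and 0.817 (-1.71). Serpina4-ps1, Rad51b and Pltp met the limit on the mean signal only through the wild-type array at 6 weeks, where they were high. Elovl5, Ehhadh and Acot1, an elongase, a peroxisomal oxidation enzyme and a thioesterase, were likewise highest in wild type at 6 weeks, with differences of -1.26, -1.16 and -1.29. The 32 genes of fatty acid oxidation as a list had 1 higher, 3 lower and a median of -0.04. Acot3 at 4.77, 2.33, 11.6 and 14.7 was the higher one (1.38), although its neighbour Acot1 was lower.

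Proliferation genes were lower in knockout at 6 weeks, with exceptions. Of 17 cell cycle members, 3 passed 2-fold downwards and 2 upwards, 14 had a difference below 0, and the median was -0.67. Their median ratio was already below wild type at 3 weeks, at -0.29, and was -0.96 at 6 weeks. Mki67, the Ki-67 antigen, was at 3.13, 2.14, 0.783 and 0.204, so that the signal was lower at 6 weeks in both genotypes and more so in knockout (-1.40, and -1.46 by a second probe). Cyclin B2, Ccnb2, was at 2.31, 2.08, 0.878 and 0.255 (-1.64). The 2 higher genes both supply DNA precursors: Rrm2, of ribonucleotide reductase, at 6.49, 4.75, 1.36 and 3.37 (1.76), and thymidine kinase Tk1 at 6.95, 4.97, 3.38 and 4.86 (1.01).

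Cytosolic chaperones were lower in the knockout pool at 6 weeks. Of 19 heat shock members, 4 passed 2-fold downwards and 0 upwards, 16 had a difference below 0, and the median was -0.48. Hsph1, a large HSP70-family chaperone, was at 6.36, 5.89, 6.34 and 1.84 (-1.67, and -1.65 by a second probe), Hsp90aa1, the inducible HSP90, at 17.7, 16.1, 15 and 5.79 (-1.24), and their partner Dnajb1 at 8.83, 9.16, 11 and 5.26 (-1.11). The other 3 arrays were close together for all 3 genes. Hspb1 differed in form, at 1.96, 3.76, 10.9 and 7.5 (-1.48). The constitutive Hspa8 had -0.11 and the mitochondrial pair Hspd1 and Hspe1 0.06 and -0.05. The 17 genes of the unfolded protein response of the endoplasmic reticulum had none past 2-fold and a median of -0.05.

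Several interferon-stimulated genes, antiviral effectors among them, had a lower ratio at 6 weeks, while the antigen presentation genes named below did not. The 24 members had a median difference of -0.33, with 5 past 2-fold downwards and 0 upwards. Oas1a, which makes the activator of RNase L, was at 3.62, 3.51, 4.83 and 1.78 (-1.40, and -1.51 by a second probe), and Isg15, a ubiquitin-like modifier, at 4.81, 5.38, 6.39 and 2.87 (-1.31, and -1.41). Ifi27l2a was at 7.45, 6.26, 8.66 and 3.05 (-1.25), and its neighbour Ifi27 at 22, 21.2, 46.1 and 20.9 (-1.09). For the class I genes H2-K1 and H2-D1 the differences were 0.17 and 0.19, and for the immunoproteasome gene Psmb9 0.67. The promoters of Oas1a (chr5:120907526-120907775) and Isg15 (chr4:156200819-156201068) are both on the minus strand of GRCm38.p6 in RefSeq. They are shown because, of the motifs searched, the interferon-stimulated response element was the most frequent within the interferon-stimulated list. Its core, searched on either strand as a pair of GAAA with 2 bases of any kind between them, is in capitals.
Oas1a: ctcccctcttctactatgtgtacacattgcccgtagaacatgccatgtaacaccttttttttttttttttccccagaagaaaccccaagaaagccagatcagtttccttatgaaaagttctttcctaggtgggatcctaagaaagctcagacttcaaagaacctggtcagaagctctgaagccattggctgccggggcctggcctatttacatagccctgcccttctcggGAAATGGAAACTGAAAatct
Isg15: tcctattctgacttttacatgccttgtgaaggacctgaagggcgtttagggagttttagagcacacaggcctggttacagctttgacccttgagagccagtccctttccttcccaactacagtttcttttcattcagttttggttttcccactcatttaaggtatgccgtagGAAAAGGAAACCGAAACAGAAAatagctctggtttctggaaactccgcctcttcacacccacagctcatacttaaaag
Overlapping matches number 2 in Oas1a and 3 in Isg15. The core was in 10 of the 20 members of the list with a promoter (50%), against 3.04% of all 27025 promoters, 3.61% of those of genes at least 2-fold lower and 3% of those of genes at least 2-fold higher. Members past 2-fold in either direction had less GC in these 250 bases (median 54.8% for 100 higher and 56.4% for 83 lower genes) than the 5262 other members (59.6%).

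**Figure D4:**
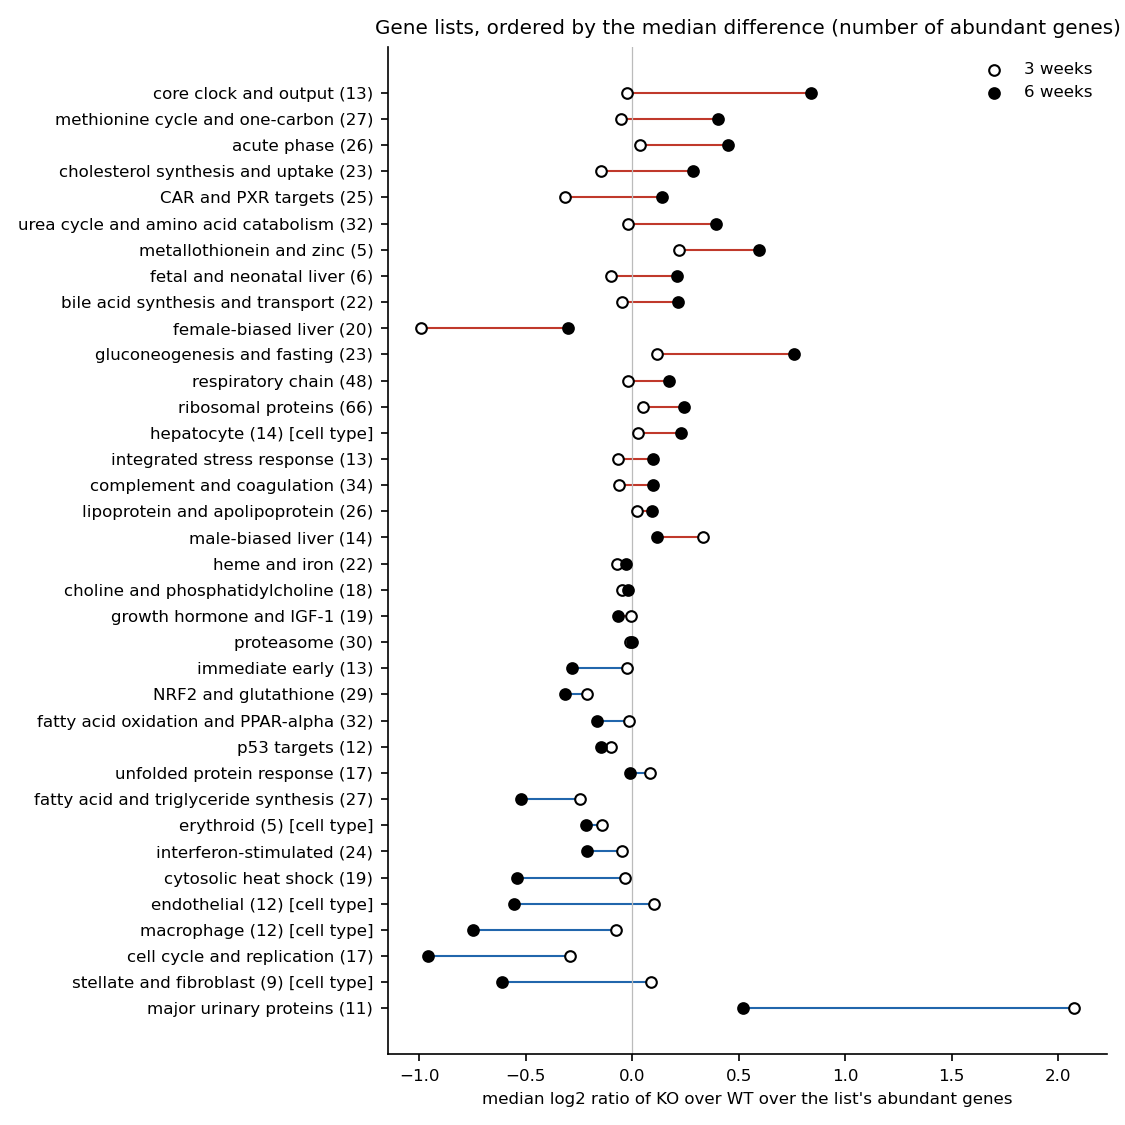
Median log2 ratio of knockout over wild type at 3 weeks (open) and 6 weeks (filled) for each list with at least 5 abundant genes, ordered by the median difference, with the number of genes in brackets and 1 array per group. Red lines mark a median difference above 0 and blue ones below 0. The clock list is at the top (0.87) and the major urinary proteins at the bottom (-1.42), and the medians of the macrophage, endothelial and stellate lists move to the left at 6 weeks.

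Macrophage, endothelial and stellate or fibroblast markers were lower in the knockout pool at 6 weeks than in wild type. In bulk liver RNA, fewer cells of a type and less RNA per cell cannot be told apart. All 12 macrophage members had a difference below 0 (median -0.67), as did all 9 stellate and fibroblast members (-0.75) and 10 of 12 endothelial members (-0.58). The summed signal of the 15 macrophage markers was 110, 101, 102 and 59.9 and that of the 15 endothelial markers 75, 80.3, 80.2 and 62. Adgre1, the F4/80 antigen, was at 2.35, 2.36, 2.27 and 0.776 (-1.55, and -1.17 by a second probe), and the Kupffer cell lectin Clec4f at 10.2, 9.3, 10.8 and 5.18 (-0.92). The collagen genes Col1a1 (3.43, 4.35, 1.13 and 0.565) and Col3a1 (11.2, 11.6, 3.27 and 1.44) had -1.35 and -1.23, with lower signals at 6 weeks in both genotypes. The markers of leukocytes other than macrophages and of bile duct cells had few members and medians above 0. The 4 neutrophil and monocyte members had a median difference of 0.15, and the summed signal of the list at 6 weeks was 72.8 in wild type and 79.7 in knockout. For 3 lymphocyte members the median was 0.12 (sums of 19.9 and 25.7), and for 2 cholangiocyte members 0.13 (70.8 and 73.5). The part of these cells in the lower interferon, chaperone and proliferation genes was not tested.

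Skeletal muscle genes lay far above wild type in both knockout pools. Only 4 of 30 muscle markers were members, 3 of them at least 2-fold lower by the difference. Tnnc2, fast troponin C, was at 0.036, 15.2, 0.185 and 10.9, with log2 ratios of 8.73 and 5.87 and a difference of -2.85. Its log2 change with age was 2.36 in wild type, between low signals, and -0.49 in knockout. The difference of Tnnc2 was -2.06 with normexp and quantile normalization and -3.04 with quantile normalization alone. Tnni2, fast troponin I, was at 0.109, 16.4, 0.219 and 7.76, with ratios of 7.24 and 5.15 and a difference of -2.09. Both genes met the limit on the mean signal only through the knockout arrays. The sums of the whole marker list are given above. Without the muscle markers the count of lower genes was 141, an alternative chosen after seeing the data.

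A set of 13 members with a symbol were at least 1.5-fold from wild type at both ages in opposite directions, 9 below wild type first and 4 above it first. Lrtm1, a leucine-rich repeat membrane protein gene, had the largest positive difference among members with a gene symbol, with signals of 2.74, 1.38, 0.492 and 3.38, a ratio that crossed from below wild type to 2.78, and a difference of 3.78. Orm1, Orm2, Prodh and Serpina4-ps1, described above, also belong here. Ppp1r3g, a glycogen-targeting subunit of protein phosphatase, went from above to below wild type, at 0.795, 2.05, 2.27 and 1.05 (-2.48). Wfdc21 (13.2, 8.38, 40.4 and 68.9) and the GTPase gene Gbp11 (0.963, 0.606, 1.11 and 1.73) went from below to above, with 1.43 and 1.30.

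Of the other genes at the extremes, Map2k6, a p38 pathway kinase, was at 1.01, 0.766, 0.607 and 2.29 (2.32), and Dmbt1, a scavenger receptor gene, at 0.422, 0.0672, 8.16 and 5.25 (2.02, and 1.17 with normexp and quantile normalization), below wild type at both ages. Sult2a3, a sulfotransferase gene, was also below wild type at both ages, at 2.71, 1.37, 2.33 and 0.315 (-1.91), and Tubb2a, a beta-tubulin, was at 30.1, 26.2, 38.1 and 10.1 (-1.72). Plekhb1 was highest in wild type at 6 weeks, at 1.32, 1.88, 6.68 and 2.69 (-1.82). Map2k6 met the limit on the mean signal only through the knockout array at 6 weeks, and Dmbt1 only through both arrays at 6 weeks.

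Several large values rest on 1 array or 1 probe. Pip5k1a, a phosphoinositide kinase gene, was at 14.6, 22.2, 2.67 and 33.3, a difference of 3.03, but a second, dimmer probe gave -0.02. For H19, an imprinted fetal transcript at 86.1, 94.6, 0.985 and 5.17, the difference was 2.26 and a second probe gave 0.52. Egfr, the receptor of epidermal growth factor, had -1.02 by 1 probe and -0.17 by another. Pde6c, a cone phosphodiesterase gene, at 1.69, 3.41, 0.444 and 6.7, had 2.90 and 3.22. Of 29 genes past 2-fold with a second probe that met the rule, 27 had the same sign on it and 23 were past 2-fold in the same direction too. Second probes too dim for the rule are outside this tally, and agreement over them was not counted. Those of Pip5k1a, H19 and Cirbp, all short of 2-fold, are among them.

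Some of the lower genes lay in the same region of the array. Counting members for which 1 array was at least 2-fold from the median of the other 3 while those lay within 1.5-fold, the array of knockout at 6 weeks was low for 65 members and high for 37, against 4, 6 and 20 low on the arrays of wild type and knockout at 3 weeks and wild type at 6 weeks. Of these 65 members, 47 were among the 144 genes at least 2-fold lower by the difference. Over all 4 arrays, 100 of the 294 genes past 2-fold stood apart on 1 array in this way. These 65 members were concentrated in columns 9 to 20 of the 85 columns, limits chosen after seeing the data: 24 of 1152 members there (2.08%) against 41 of 7035 elsewhere (0.583%). Nkd2, a Wnt signalling inhibitor, at 14.9, 17.8, 19 and 0.713 (-5.00), the cannabinoid receptor gene Cnr2, at 2.9, 2.88, 3.79 and 0.3 (-3.64), and the amine oxidase gene Aoc2, at 52.8, 54.9, 61.9 and 8.67 (-2.89), lie in columns 15, 18 and 9. With those columns left out, Aoc2 had -0.18 from another probe, Nkd2 -2.07 from a probe that was not well above background on every array, and Cnr2 no value. The counts were then 126 higher and 101 lower of 7188 members. Per1 had 0.754 without them, Mup20 -1.71 and Oas1a -1.51, each from another probe.

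**Figure D5:**
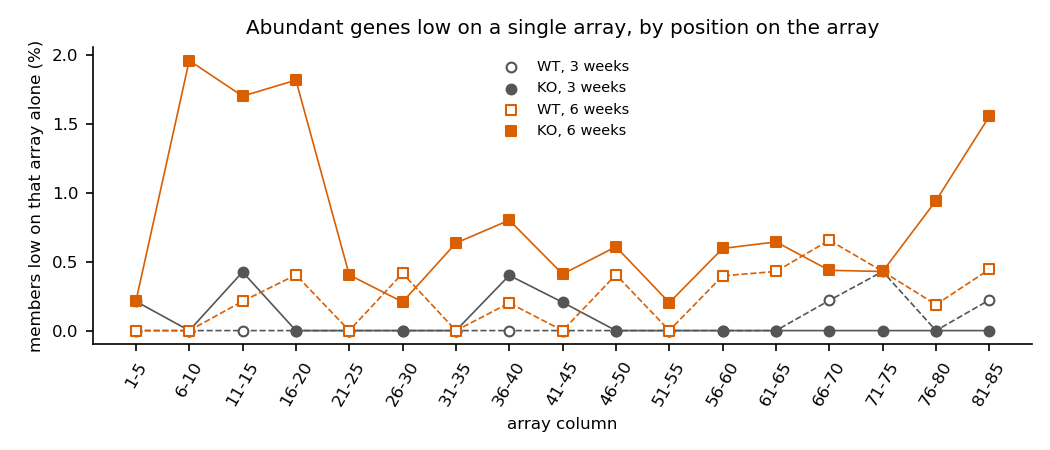
Percentage of abundant genes whose signal was low on 1 array alone, by position of the probe in bins of 5 array columns, for each of the 4 arrays. The array of knockout at 6 weeks stands at 1.7% to 1.96% in columns 6 to 20 and 1.56% in columns 81 to 85, and the arrays at 3 weeks stay at or below 0.429% in every bin.

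Some of these probes share sequence with probes elsewhere on the array. The 12-base stretch found most often among the probes of those 65 members, in 3 of them along with its overlapping neighbours, was CTGGTGTGTCTG, which belongs to the B2 short interspersed repeat. It occurs in 13 probes well above background on all arrays, so that these probes can read repeat-containing transcripts besides their named gene. The windows of 30 bases are printed to show how alike the probes are, with the stretch in capitals, first the 3 with a lower signal in knockout at 6 weeks and then 3 without.
Gm10631: ctcttCTGGTGTGTCTGaagacagacagct
Aoc2: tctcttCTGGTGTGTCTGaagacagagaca
Zfp658: tcttCTGGTGTGTCTGaaagcagcgacagt
Snhg15: ctCTGGTGTGTCTGaagacagtgatggtgt
Luc7l2: atcactcttCTGGTGTGTCTGaagagagtg
Synrg: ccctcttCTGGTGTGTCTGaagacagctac
Gm10631 was at 20.9, 21.1, 24 and 0.384, Aoc2 as above, and Zfp658 at 28.5, 29, 34 and 14, with differences of -5.98, -2.89 and -1.30, and their probes lie in columns 18, 9 and 19. The other 10 had differences between 0.062 and 0.38. Of these, Snhg15, at 3.85, 4, 5 and 5.41, lies in column 12 and an unnamed probe in column 16, so that not every such probe in those columns was low. Among 1265 replicate spots of bright probes on that array, 4 lay at least 0.8 log2 units below the median of their own probe, 2 of them in columns 9 to 20, against 0 on each of the other arrays. The part of array position in the lower values was not tested.

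Some genes past 2-fold were neighbours. Of 148 higher genes with a position, 22 (14.9%) lay within 200 kb of another one, and of 142 lower genes 27 (19%). Of all 8133 members with a position, 6882 (84.6%) lay that close to another member, but that set is far denser, and the share in a set as sparse was not computed. The runs were the known gene families: Mt1 and Mt2, Saa1 and Saa2, Orm1 and Orm2, Cyp2b9, Cyp2b10 and Cyp2b13, Oas1a with its paralogs Oas1f and Oas2, and the major urinary proteins, whose longer run spans chr4:61195710-61711466 (mm9) with 10 probes' genes. Members of a run share descent and, for close copies, probe sequence, so they are not independent of one another.

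Other lists gave little. None of the 19 growth hormone and IGF-1 genes, 34 complement and coagulation genes or 30 proteasome genes was past 2-fold, with medians of 0.02, 0.14 and -0.02. The 13 members of the integrated stress response had 2 higher and 1 lower: the pseudokinase Trib3 at 1.23, 1.83, 1.99 and 8.21 (1.48), the lipoprotein receptor Vldlr at 1.22, 1.09, 1.42 and 3.42 (1.43), and the stress hormone Gdf15 at 3.25, 2.36, 3.13 and 1.03 (-1.14). Of 22 heme and iron genes 1 was higher, Hamp2, a hepcidin, at 33, 11, 126 and 143 (1.77), with knockout at 3 weeks low. Of 29 NRF2 and glutathione genes 2 were higher, Ces1g and Gsta2, with 1.46 and 1.25, both low on the array of knockout at 3 weeks alone.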

How the data were processed

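Pools of liver RNA from 5 animals were each hybridised to 1 of 4 one-colour Agilent arrays, per the series' design text. Agilent Feature Extraction 11.5.1.1, named in the submitters' processing notes, gave the deposited intensity of each spot, and per the file headers it removed background but did not scale the arrays to each other. Other deposited columns used are flags of 0 or 1 (outlier, saturation, signal well above background), per the file headers. In the table of values, the authors gave that intensity divided by the array's 75th percentile. Its ratio to the same quotient computed here was 1 on every array to 3 decimals, which settles its scale and direction. Its column medians were 0.0878, 0.0896, 0.0853 and 0.0864.

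From there, the log2 of the intensity was taken relative to the 75th percentile of 43020 non-control spots on each array (percentiles 1248, 1313, 1230 and 1124). Outlier spots were left out (189 to 252 per array), none was saturated, and spots of a probe were averaged, which left 39255 of 39429 probes. Names came from a RefSeq table (GRCm38.p6) by accession for 27508 probes, symbol for 3544 and synonym for 404, and 7973 kept the name in the file. Positions are mm9, as in the files, and promoters are RefSeq's, present for 5445 members. Each gene took its brightest probe. No test was possible, and genes were counted at 2-fold.

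Members, 42 gene lists and the naming rule were chosen with earlier results of these data known. Named were Pnpla7, the 15 highest and 15 lowest symbols, up to 10 of opposite direction, up to 4 per list past 2-fold (all for choline and methionine) and the genes at the limit. Some genes that this rule takes are not reported here. Other genes of these lists, paralogs and probes were named after their values were seen. The calculation was tested on simulated data. Alternatives were normexp (offset 50) with quantile normalization, quantile normalization, median scaling, the mean of probes, outliers kept, the value table, other limits and other fold sizes. Python 3.11.15 and limma 3.58.1 in R 4.3.3 were used.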

Additional observations from a re-analysis of the deposited data

Results flagged for a closer look

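Of the genes reported here, 8 were at least 1.5-fold from wild type at both ages in opposite directions, each with 1 array per group, so the difference was not tested. Those below wild type at 3 weeks and above it at 6 weeks were Lrtm1 (difference 3.78), Orm2 (2.07), Orm1 (2.01), Prodh (1.76), Wfdc21 (1.43) and Gbp11 (1.30). Those above wild type first and then below it were Ppp1r3g (-2.48) and Serpina4-ps1 (-5.67). A second probe gave the same direction for Serpina4-ps1 (-5.77). None of the 8 probes lies in columns 9 to 20 of the array.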

How the results depend on the processing

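No paired analysis was possible because the labels give no replicate numbers and each group is 1 pool on 1 array. The counts of 150 higher and 144 lower genes became 544 and 476 at 1.5-fold and 16 and 19 at 4-fold. With the mean signal required to be above 1, the lower count was 89 and the higher one 115. Under the other alternatives the higher count ranged from 125 to 197 and the lower from 101 to 205. The highest of both came from a mean above -1, which admits dimmer genes. Quantile normalization gave 132 and 157, normexp with quantile normalization 125 and 159, and centring on the members' median, chosen after seeing the data, 132 and 180. Under the settings that gave a value, no named gene past 2-fold and no list with a median difference of at least 0.3 in size changed direction. Without columns 9 to 20, 9 of these genes (Lcn2, Cyp2b10, Gpt, Gsta2, Mup19, Sult2a3, Vnn1, Cdh5 and Cnr2) had no value. Of 95 named genes past 2-fold, Got1, Mat1a, Ahcy and Cyp39a1 fell below it with either quantile setting and Gpt with normexp, Egfr with the mean of its probes (-0.478), and Aoc2 and Per1 without columns 9 to 20. Medians of complement (-0.08) and hepatocyte genes (-0.048) turned negative with quantile normalization, and that of choline genes was -0.13. The median of urea cycle and amino acid genes fell from 0.38 to 0.25 with normexp and quantile normalization. With 1 pool per group, none of these settings bears on the spread between animals.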
